A study of Homo sapiens with 8 samples.

Results

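HOXA9, HOXA10, HOXA11 and HOXA13, the posterior coding genes of the human HOXA cluster on chromosome 7, were followed across 8 RNA pull-down libraries of acute myeloid leukaemia cells. They were chosen by gene symbol, a rule that uses no measured value. The choice of these members and of the gene lists below was made with earlier results of these data known. They are 4 of the 63140 genes of the deposited table. All 4 passed the filter on low counts that left 24057 genes for testing. The study edited HOTSCRAMBL, a long non-coding RNA, and recovered RNA by chromatin isolation by RNA purification (ChIRP), in which fixed and sonicated cells are incubated with biotinylated DNA probes and whatever is held by the probes is captured on streptavidin beads. The comparison of interest is whether RNA of these genes in the captured material differs after HOTSCRAMBL is edited. Every group held 2 libraries, 1 labelled MOLM13 and 1 labelled OCI-AML4, both names of established human leukaemia lines. MOLM13 carries a KMT2A-MLLT3 fusion. Cells were collected on day 3 after nucleofection. In the AAVS1 KO group they had received Cas9 protein with a guide to AAVS1, a site in common use as an editing control, and are labelled WT. In the HOTSCRAMBL KO group the same nuclease was guided to HOTSCRAMBL. The AAVS1 CBE and HOTSCRAMBL CBE groups received a cytosine base editor, which changes cytosines without cutting both strands, with guides to the same targets. All 4 groups thus share nucleofection and an editor, and all were pulled down. The labels describe edited cell populations and name no clone, they do not state which RNA the probes bind, and no input library was analysed here, so a value below is an amount in the pull-down and not an enrichment. The level of HOTSCRAMBL itself was not analysed here, so the edit could not be checked from these counts. Nothing in the labels says whether the libraries of a group came from separate cultures beyond their line names, so p-values measure the spread between these libraries only.

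HOX genes encode homeodomain transcription factors that give cells positional identity along the body axis, and within a cluster their order on the chromosome follows the order in which they are expressed. The HOXA9, HOXA10, HOXA11 and HOXA13 proteins belong to the posterior, Abdominal-B-related classes, bind AT-rich DNA and, for the first members, act with the TALE homeodomain proteins PBX and MEIS. HOXA9 keeps blood stem and progenitor cells in an immature, dividing state and is a main driver of acute myeloid leukaemia with KMT2A fusions. HOXA10 acts in myeloid differentiation and in the uterus, HOXA11 in limb and kidney, and HOXA13 in the hand, foot and urogenital tract.

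The stretches just upstream of 1 RefSeq transcription start of each gene are shown because they hold the proximal promoter for that start. Each is the 250 bases before that start on GRCh38.p14, minus strand, written 5′ to 3′. For HOXA11 and HOXA13 the start is the 5′ end annotated in the deposited table (27185232 and 27200091). For HOXA9 and HOXA10 it lies inside the annotated span, at 27165537 and 27174320, against 5′ ends at 27175180 and 27180261. The positions are chr7:27165538-27165787 for HOXA9, chr7:27174321-27174570 for HOXA10, chr7:27185233-27185482 for HOXA11 and chr7:27200092-27200341 for HOXA13. Capitals mark matches on either strand to 5 short motifs. The CCAAT box was searched as CCAAT, the TATA box as TATAAA, the E-box as CACGTG, the GC box as GGGCGG and the CDX-type site as TTTATG.
HOXA9: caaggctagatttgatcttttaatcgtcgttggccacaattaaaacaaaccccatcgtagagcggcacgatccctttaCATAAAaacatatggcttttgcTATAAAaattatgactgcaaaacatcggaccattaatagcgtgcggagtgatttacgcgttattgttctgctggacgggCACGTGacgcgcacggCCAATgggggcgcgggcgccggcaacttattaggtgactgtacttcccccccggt
HOXA10: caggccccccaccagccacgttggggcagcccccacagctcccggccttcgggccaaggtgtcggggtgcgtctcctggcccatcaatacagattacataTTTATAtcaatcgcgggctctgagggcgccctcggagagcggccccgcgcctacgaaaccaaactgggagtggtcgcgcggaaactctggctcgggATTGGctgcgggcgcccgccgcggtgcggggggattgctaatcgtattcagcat
HOXA11: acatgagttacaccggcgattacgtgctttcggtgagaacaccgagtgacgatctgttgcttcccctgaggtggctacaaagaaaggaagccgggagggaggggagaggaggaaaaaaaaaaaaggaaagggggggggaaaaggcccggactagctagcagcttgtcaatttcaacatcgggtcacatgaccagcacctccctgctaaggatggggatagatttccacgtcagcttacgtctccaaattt
HOXA13: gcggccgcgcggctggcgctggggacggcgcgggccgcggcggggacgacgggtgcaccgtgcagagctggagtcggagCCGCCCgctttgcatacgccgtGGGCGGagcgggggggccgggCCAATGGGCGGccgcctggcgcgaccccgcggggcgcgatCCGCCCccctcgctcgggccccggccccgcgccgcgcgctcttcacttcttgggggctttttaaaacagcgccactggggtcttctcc
The CCAAT box was found in 3 of the 4 and the TATA box in 2. HOXA9 had 4 matches, 1 each to the CCAAT box, the TATA box, the E-box and the CDX-type site, at a GC content of 48.8% with 20 CG pairs. HOXA10 had 1 CCAAT box and 1 TATA box, at 65.2% GC with 24 CG pairs. HOXA11 had 0 matches, at 51.6% GC with 11 CG pairs. HOXA13 had 1 CCAAT box and 4 GC boxes, 1 of them directly after the CCAAT box, at 78.0% GC with 40 CG pairs. Over 35116 RefSeq promoters searched in windows of the same length, 32.0% held the CCAAT box, 10.7% the TATA box, 6.3% the E-box, 42.6% the GC box and 9.6% the CDX-type site, and the median promoter had 58.0% GC and 11 CG pairs. No match shared a base with another. A match is a description of the letters and shows no binding.

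The 4 genes lie head to tail on the minus strand, and parts of their exons are claimed by other annotated genes. In the deposited table, on GRCh38, HOXA9 (ENSG00000078399) spans 27162438 to 27175180, HOXA10 (ENSG00000253293) 27170605 to 27180261, HOXA11 (ENSG00000005073) 27181157 to 27185232 and HOXA13 (ENSG00000106031) 27193503 to 27200091. HOXA9 as annotated there reaches into HOXA10, with its first exon block of 479 bases (27174702 to 27175180) inside the span of HOXA10. Of the 3033 exon bases of HOXA9, 27.0% are shared with HOXA10-AS, the microRNA gene MIR196B or the readthrough transcript ENSG00000257184, which joins exons of HOXA10 and HOXA9. For HOXA10 26.3% of 3707 bases are shared, with HOXA10-AS and the same readthrough transcript. HOXA11 shares 726 of 2669 bases (27.2%) with HOXA11-AS on the other strand, and HOXA13 shares 86 of 5071 (1.7%) with HOTTIP. MIR196B and ENSG00000257184, whose exons lie wholly in shared bases, had 0 counts in all 8 libraries. No strand or overlap option appears in the recorded counting command, so the values below rest mainly on the unshared 2214, 2731, 1943 and 4985 bases of HOXA9, HOXA10, HOXA11 and HOXA13, and sense cannot be told from antisense in them.

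**Figure D1:**
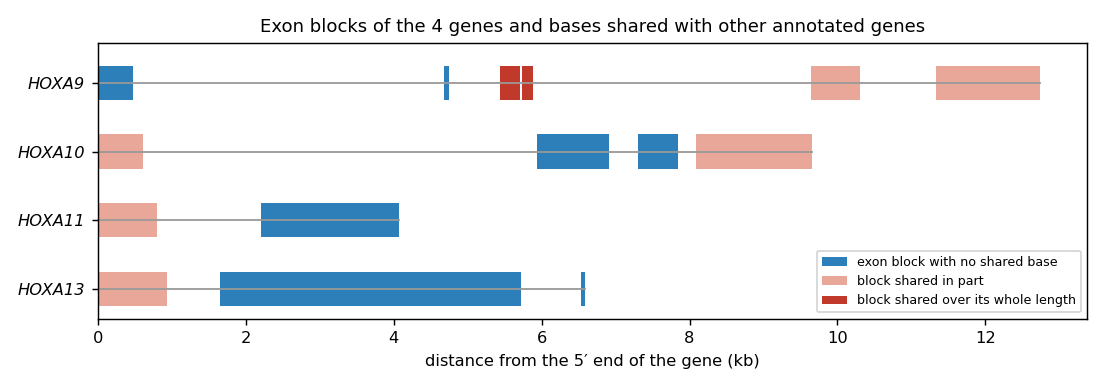
Map of the annotated exon blocks of the 4 genes, each gene placed by distance in kilobases from its own 5′ end (axis to scale). The legend gives the shading for blocks that share no base, some bases or all bases with other annotated genes, which are not drawn. HOXA13 has 1.7% of its exon bases shared, against 26.3% to 27.2% for the other 3.

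Total counts were 20548300 to 37970163 per library, with 21945 to 26083 genes detected. Among genes with 1 to 20 counts, 71.8% to 74.9% had an even count, and the recorded counting command does not count a read pair as 1. The members' raw counts ran from 315 to 1062 for HOXA9, from 176 to 577 for HOXA10, from 55 to 579 for HOXA11 and from 24 to 423 for HOXA13. Of 10 myeloid markers, 8 were above 1 CPM (the count scaled to a common library total) in every library. Not among these were CEBPE (0 to 44 counts) and CD68 (0 to 36 counts). The summed level of the 10 was 1700 to 2080 CPM, in which AZU1 alone stood at 525 to 1010 CPM. The other summed levels were 7.68 to 12.7 CPM for 5 B cell markers, 0 to 2.6 CPM for 5 T cell markers (CD2 and CD3E at 0), 0 to 6.26 CPM for 7 erythroid and megakaryocyte markers (HBB and PF4 at 0) and 0 to 1.02 CPM for 5 fibroblast markers (COL3A1 and LUM at 0). In bulk libraries such as these, fewer cells of a type and less RNA per cell cannot be told apart. No library of known line was at hand to check the line labels.

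Per length of unshared exon, the members formed a descending series along the cluster, from HOXA9 to HOXA13. The median over the 8 libraries was 12.8 CPM per kilobase for HOXA9, 5.89 for HOXA10, 3.85 for HOXA11 and 1.17 for HOXA13. HOXA9 was above HOXA10 in 8 of 8 libraries, and HOXA11 was above HOXA13 in 8 of 8. HOXA10 was above HOXA11 in 6 of 8. The 2 exceptions were the HOTSCRAMBL CBE libraries, in which the level per length of HOXA11 was 1.41 times (MOLM13) and 1.36 times (OCI-AML4) that of HOXA10, against 0.317 to 0.906 times in the other 6. The neighbours HOXA10 and HOXA11 therefore do not hold 1 order across the libraries. The spread over libraries was widest for HOXA13: the highest library stood at 2.59 times the lowest for HOXA9, 2.31 times for HOXA10, 7.14 times for HOXA11 and 16.4 times for HOXA13. The edgeR estimate of variation between replicates (the biological coefficient of variation of the gene) was 0.226 for HOXA9, 0.301 for HOXA10, 0.386 for HOXA11 and 0.465 for HOXA13. It rose as the mean level fell (27.8, 15, 9.2 and 6.62 CPM, at percentiles 74.7, 65.7, 58.8 and 54.5 of genes tested). The common value of 0.708 covers genes of all levels and is no measure for genes at the members' level.

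**Figure D2:**
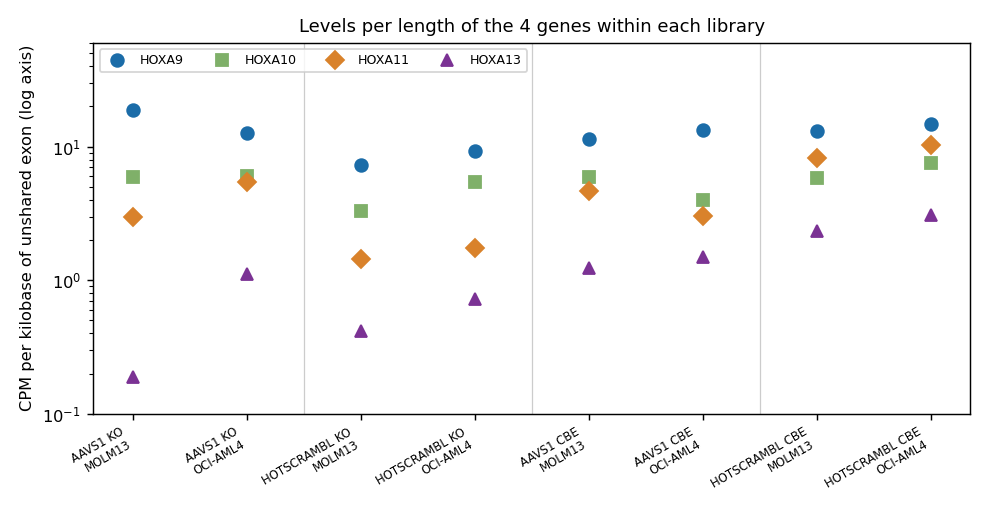
Level of each gene in each library, in CPM per kilobase of exon not shared with another gene, on a log axis, with 1 point per gene and library. HOXA9 is highest and HOXA13 lowest in 8 of 8 libraries, and HOXA11 stands above HOXA10 only in the HOTSCRAMBL CBE pair.

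After Cas9 editing of HOTSCRAMBL, HOXA9, HOXA10 and HOXA11 were each lower in both HOTSCRAMBL KO libraries than in both AAVS1 KO libraries, but no member passed the test. Levels here are CPM after TMM scaling, a correction for differences in RNA composition, and are given for MOLM13 and then OCI-AML4. HOXA9 was at 41.6 and 27.8 CPM in AAVS1 KO and at 16.1 and 20.6 CPM in HOTSCRAMBL KO. The groups did not overlap, and the MOLM13 control was the highest of all 8 libraries. The means were 34.7 ± 9.75 and 18.3 ± 3.21 CPM (SD, n = 2 each), and the edgeR log2 fold change was −0.91 (SE 0.317, 95% interval −1.57 to −0.26, adjusted p 0.0773). HOXA10 was at 16.2 and 16.4 CPM in AAVS1 KO and at 8.98 and 14.9 CPM in HOTSCRAMBL KO. The control libraries nearly coincided and the edited pair lay apart from each other, with the OCI-AML4 library close to the controls. The edgeR log2 fold change of HOXA10 was −0.43 (SE 0.413, 95% interval −1.28 to 0.42, adjusted p 0.623).

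HOXA11 was at 5.76 and 10.6 CPM in AAVS1 KO and at 2.81 and 3.35 CPM in HOTSCRAMBL KO, the 2 lowest values of the 8 libraries. Its means were 8.18 ± 3.42 and 3.08 ± 0.387 CPM, and the edgeR log2 fold change of −1.40 had an SE of 0.664 (95% interval −2.77 to −0.04, adjusted p 0.233). HOXA13 was at 0.941 and 5.52 CPM in AAVS1 KO and at 2.09 and 3.62 CPM in HOTSCRAMBL KO. Here the edited libraries lay between the controls, which themselves lay farther apart than the pair of any other group for this gene. The low control rested on 24 counts, against 138 in the other, and since both reads of a pair can be counted the number of fragments behind them is smaller. The edgeR log2 fold change of HOXA13 was −0.16 (SE 0.832, 95% interval −1.87 to 1.55, adjusted p 0.947).

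Of the 4 members, 0 passed edgeR's test with Benjamini-Hochberg adjustment in the KO comparison, where 8.76% of all genes tested passed. At an unadjusted p under 0.05 there were 2 members (HOXA9 and HOXA11) and 20.1% of all genes. DESeq2 on the same genes called these 2, DESeq2 with its own filter called 1 (HOXA9) and limma-voom called 0. Groups did not overlap, with HOTSCRAMBL KO lower, for 3 of 4 members and for 23.8% of all genes tested. The 4 log2 fold changes were all below 0, with a median of −0.67, against −0.01 over all genes tested. Within each labelled line the log2 ratios were −1.37 (MOLM13) and −0.43 (OCI-AML4) for HOXA9, −0.85 and −0.14 for HOXA10, −1.04 and −1.66 for HOXA11 and 1.15 and −0.61 for HOXA13, so HOXA13 had opposite signs under the 2 line labels. Leaving out the OCI-AML4 library of AAVS1 KO turned the HOXA13 value to 1.41. Over the leave-one-out fits the HOXA9 value ran from −1.29 to −0.49 and the HOXA11 value from −1.76 to −0.90.

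**Figure D3:**
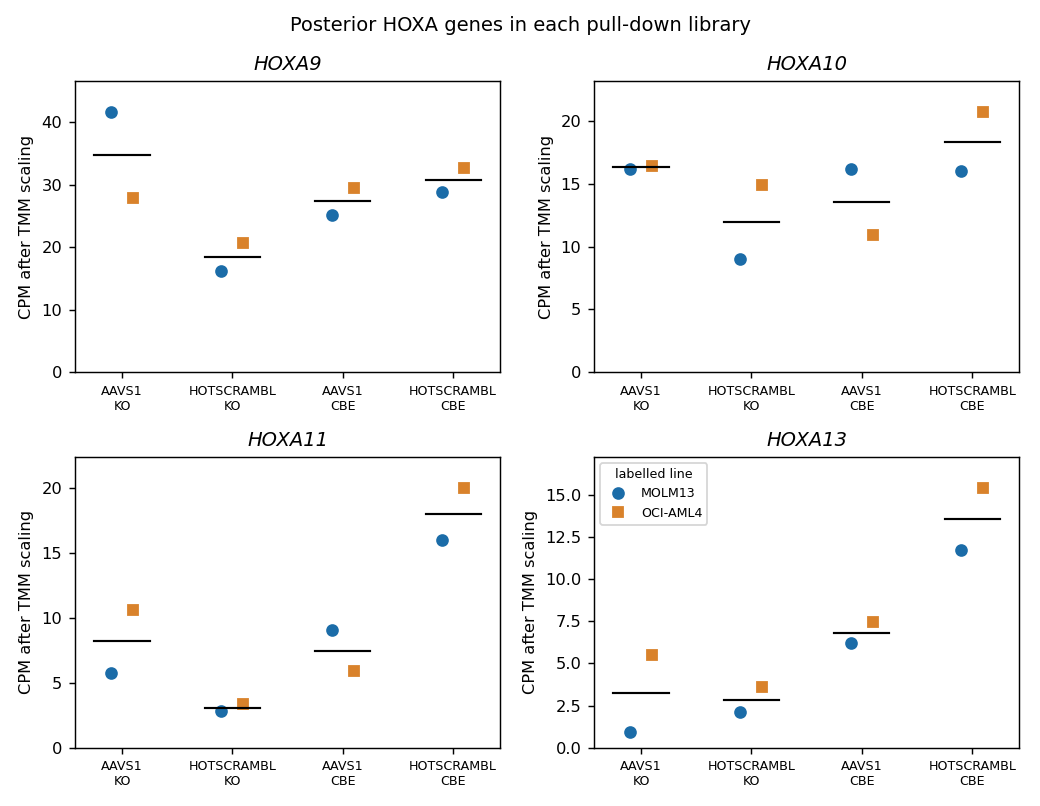
CPM after TMM scaling of each gene in the 8 libraries, by group; circles are MOLM13, squares OCI-AML4, and the line is the mean of the 2. Each panel has its own axis, starting at 0. HOXA9 is lowest in the HOTSCRAMBL KO pair (16.1 and 20.6 CPM), and HOXA11 and HOXA13 are highest in the HOTSCRAMBL CBE pair (HOXA11 16 and 20 CPM, HOXA13 11.7 and 15.4 CPM).

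After base editing of HOTSCRAMBL the order was different. HOXA11 rose, HOXA13 was also higher in both libraries without passing the test, and HOXA9 and HOXA10 overlapped their controls. HOXA11 was at 9.06 and 5.9 CPM in AAVS1 CBE and at 16 and 20 CPM in HOTSCRAMBL CBE, above every other library of the series. Its means were 7.48 ± 2.24 and 18 ± 2.82 CPM (SD, n = 2 each), and the edgeR log2 fold change was 1.23 (2.34-fold, SE 0.391, 95% interval 0.42 to 2.03, adjusted p 0.0484). That call lies next to the threshold and was lost in 15 of 20 alternative fits, among them all 8 that left out a library, over which the log2 fold change ran from 0.76 (without the OCI-AML4 library of AAVS1 CBE) to 1.85 (without its MOLM13 library) and the edgeR adjusted p from 0.0737 to 0.512. HOXA13 was at 6.18 and 7.45 CPM in AAVS1 CBE and at 11.7 and 15.4 CPM in HOTSCRAMBL CBE, again the 2 highest values of the series. The means were 6.82 ± 0.901 and 13.6 ± 2.62 CPM, and the edgeR log2 fold change was 1.00 (SE 0.424, 95% interval 0.12 to 1.87, adjusted p 0.171).

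HOXA9 was at 25.2 and 29.5 CPM in AAVS1 CBE and at 28.9 and 32.6 CPM in HOTSCRAMBL CBE. The 4 values interleave, and the edgeR log2 fold change was 0.16 (SE 0.267, 95% interval −0.39 to 0.71, adjusted p 0.794). HOXA10 was at 16.2 and 10.9 CPM in AAVS1 CBE and at 16 and 20.7 CPM in HOTSCRAMBL CBE, with an edgeR log2 fold change of 0.39 (SE 0.345, 95% interval −0.32 to 1.10, adjusted p 0.583). The MOLM13 pair of HOXA10 was level (log2 ratio −0.02) and the OCI-AML4 pair was not (0.93). The within-line log2 ratios of the other members were 0.20 and 0.14 for HOXA9, 0.82 and 1.76 for HOXA11 and 0.92 and 1.05 for HOXA13.

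Of the 4 members, 1 passed edgeR's test in the CBE comparison, where 8.83% of all genes tested passed and 4.56% passed as higher. DESeq2 on the same genes called 1 member, DESeq2 with its own filter 0 and limma-voom 0, and 2 members (HOXA11 and HOXA13) had an unadjusted p under 0.05, as had 20.1% of all genes. Groups did not overlap, with HOTSCRAMBL CBE higher, for 2 of 4 members and for 22.7% of all genes tested. The 4 log2 fold changes were all above 0, with a median of 0.70, against −0.02 over all genes tested. Scaling moved all genes together: without TMM the median gene shifted to −0.17 for the KO effect and to −0.15 for the CBE effect, and called genes split into 840 higher and 1695 lower (KO) and 782 higher and 1616 lower (CBE), against 1085 and 1023 (KO) and 1096 and 1028 (CBE) with TMM. Without TMM the HOXA11 CBE effect was 1.09 (edgeR adjusted p 0.0836), which lost the call, and the HOXA9 KO effect was −1.07 (edgeR adjusted p 0.0254), which passed.

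The difference between the editors, that is the KO effect minus the CBE effect, is a test of its own. For HOXA11 it was −2.63 on the log2 scale (SE 0.764, 95% interval −4.20 to −1.06), and its edgeR adjusted p of 0.0591 missed the threshold. For HOXA9 the difference was −1.08 (SE 0.417, 95% interval −1.93 to −0.22, edgeR adjusted p 0.202). For HOXA10 it was −0.83 (95% interval −1.94 to 0.28, edgeR adjusted p 0.533) and for HOXA13 −1.16 (95% interval −3.08 to 0.77, edgeR adjusted p 0.641). Of the 4 members, 0 passed, where 3.19% of all genes tested did. HOXA9 and HOXA11 had an unadjusted p under 0.05, as had 14.1% of all genes. DESeq2 called 1 member (HOXA11) on the same genes and 1 with its own filter, and limma-voom called 0. All 4 differences were below 0, with a median of −1.12, against −0.01 over all genes tested. The HOXA11 difference passed in 4 of 19 alternative fits and stayed between −3.25 and −2.13 when any 1 library was left out. The difference for HOXA13 turned to 0.43 without the OCI-AML4 library of AAVS1 KO. The average of both effects lay near 0 for HOXA10 (−0.02) and HOXA11 (−0.09), and was −0.37 (SE 0.209) for HOXA9 and 0.42 (SE 0.475) for HOXA13. Of the 4 averages 0 passed with edgeR, DESeq2 or limma-voom, where edgeR called 12.3% of all genes tested, and 0 members had an unadjusted p under 0.05, against 23.2% of all genes.

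**Figure D4:**
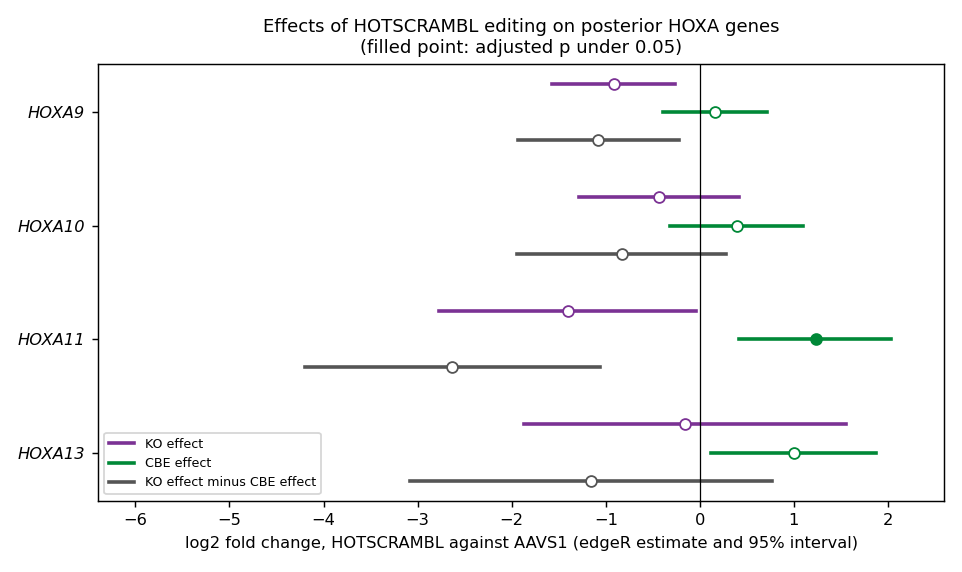
edgeR log2 fold changes of HOTSCRAMBL against AAVS1 for each gene, with 95% intervals, for Cas9 (KO), base editing (CBE) and the KO effect minus the CBE effect; a filled point has an adjusted p under 0.05. HOXA11 under base editing (1.23) is the 1 filled point, and all 4 KO points lie left of the 4 CBE points.

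The 2 sets of controls, AAVS1 KO and AAVS1 CBE, were also compared. They differ in the editor, so a difference between them holds any editor effect as well as the spread between libraries. Log2 differences between them (KO minus CBE) were 0.35 for HOXA9, 0.24 for HOXA10, 0.09 for HOXA11 and −1.10 for HOXA13 (SE 0.623, 95% interval −2.38 to 0.18, edgeR adjusted p 0.991). The HOXA13 value is larger in size than the HOXA13 CBE effect of 1.00. It rests on the AAVS1 KO library with 24 counts, from a group that is not part of the CBE comparison. Of the members 0 passed, and 0 had an unadjusted p under 0.05. Over all genes tested the share called was 0% with edgeR (918 genes, or 3.82%, at an unadjusted p under 0.05), while DESeq2 called 35 genes on the same genes and 4 with its own filter, and limma-voom called 1. DESeq2 and limma-voom called 0 members here.

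Between the labelled lines (MOLM13 minus OCI-AML4) the log2 differences were −0.10 for HOXA10, −0.21 for HOXA11 and −0.59 for HOXA13 (SE 0.372, edgeR adjusted p 0.678), and HOXA9 was level. None of the 4 passed with edgeR, DESeq2 or limma-voom, and 0 had an unadjusted p under 0.05; edgeR called 0.495% of all genes tested, and 9.19% had an unadjusted p under 0.05. HOXA13 was lower in the MOLM13 library than in the OCI-AML4 library of all 4 groups. The HOTSCRAMBL effect differed between the labels by −0.42 for HOXA9, −0.76 for HOXA10, −0.23 for HOXA11 and 0.35 for HOXA13 on the log2 scale. Again 0 members passed with any of these tools and 0 had an unadjusted p under 0.05. edgeR called 0% of all genes tested in this comparison (985 genes, or 4.09%, at an unadjusted p under 0.05), DESeq2 68 on the same genes and 5 with its own filter.

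Ratios within a library, which do not depend on its scaling, describe how the posterior end was composed. Per length, HOXA11 stood at 0.158 and 0.434 of HOXA9 in AAVS1 KO and at 0.199 and 0.185 after HOTSCRAMBL KO. With base editors it stood at 0.41 and 0.228 (AAVS1) and at 0.634 and 0.701 (HOTSCRAMBL). The base-edited pair was the highest of the 8, while the KO pair lay within the range of its controls. HOXA13 stood at 0.01 and 0.0881 of HOXA9 in AAVS1 KO and at 0.0578 and 0.078 after HOTSCRAMBL KO. With base editors it stood at 0.109 and 0.112 (AAVS1) and at 0.18 and 0.211 (HOTSCRAMBL). All 4 CBE libraries were above all 4 KO libraries in this ratio. HOXA10 to HOXA9 ran from 0.299 to 0.586 with all groups overlapping.

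As a description over the 8 libraries, which share scaling and pairs of groups, log2(CPM + 1) of HOXA11 and HOXA13 had the closest relation among the 6 pairs of members (Pearson r = 0.786, Spearman rho = 0.833). HOXA10 and HOXA11 followed (r = 0.753, rho = 0.762). HOXA9 and HOXA13, the ends of the series, had the weakest (r = 0.126, rho = 0.286).

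The genes on the other strand were read with care. Of their exon bases, 62.3% (HOXA10-AS) and 59.6% (HOXA11-AS) are shared with other genes. Their values thus rest mainly on the unshared 624 and 1264 bases, counted without a recorded strand option. HOXA10-AS (ENSG00000253187), whose exons share bases with HOXA9 and HOXA10, was at 31.5 and 25.2 CPM in AAVS1 KO and at 13.6 and 10.3 CPM in HOTSCRAMBL KO. It fell in the KO comparison (edgeR log2 fold change −1.25, SE 0.354, adjusted p 0.0243), with log2 ratios of −1.21 (MOLM13) and −1.29 (OCI-AML4). The call was lost in 5 of 20 alternative fits, among them those without any 1 of its 4 libraries, where the value ran from −1.31 to −1.19 and the edgeR adjusted p reached 0.189. In the CBE comparison its value was −0.18 (edgeR adjusted p 0.785). HOXA11-AS (ENSG00000240990), the partner of HOXA11, was at 5.72 and 7.32 CPM in AAVS1 KO and at 2.24 and 7.02 CPM in HOTSCRAMBL KO. In the base-edited groups it was at 6.06 and 4.63 CPM (AAVS1) and at 9.95 and 6.89 CPM (HOTSCRAMBL). Its edgeR log2 fold changes were −0.45 (KO, adjusted p 0.753) and 0.68 (CBE, adjusted p 0.492), on the same side of 0 as those of HOXA11 in each comparison. HOTTIP, a long non-coding RNA at the 5′ end of the cluster known for holding WDR5 at HOXA genes, had 0 to 40 counts.

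1 further transcript was singled out after its values had been seen. ENSG00000270182, on the plus strand from 27158344 to 27158976 between HOXA7 and HOXA9, is a single block of 633 bases that shares no base with another gene. Per length it stood at 19.5 to 55.8 times HOXA9 in the 8 libraries. It was at 232 and 265 CPM in AAVS1 KO and at 256 and 284 CPM in HOTSCRAMBL KO. In the base-edited groups it was at 219 and 327 CPM (AAVS1) and at 447 and 442 CPM (HOTSCRAMBL). It rose in the CBE comparison (edgeR log2 fold change 0.73, SE 0.12, adjusted p 1.24e-04) and did not pass in the KO comparison (0.12, edgeR adjusted p 0.668). The CBE call was lost in 3 of 20 alternative fits, at 0.51 without the MOLM13 library of AAVS1 CBE and 0.56 without that of HOTSCRAMBL CBE. The difference between these effects was −0.61 (edgeR adjusted p 0.0555).

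Along the rest of the cluster, 6 of the 7 anterior and central genes had a KO value below 0. Of these 7 genes, which pattern the head and trunk and include further leukaemia-linked genes such as HOXA5 and HOXA7, 2 fell, where 4.25% of all genes tested were called lower: HOXA3 (edgeR log2 fold change −2.21, adjusted p 1.93e-04) and HOXA5 (−1.80, edgeR adjusted p 0.0306). HOXA3 passed in all 20 alternative fits. HOXA5 lost its call in 8 of 20, including the fit without any 1 of the 4 KO-experiment libraries, with values from −2.42 (without the OCI-AML4 library of HOTSCRAMBL KO) to −1.38 (without the MOLM13 library of AAVS1 KO) and an edgeR adjusted p of up to 0.407. The median of the 7 was −1.80, against −0.67 for the 4 posterior genes, whose difference was not tested. In the CBE comparison 0 of the 7 passed with edgeR and 0 had an unadjusted p under 0.05, and their median was −0.10. Of all genes tested, 8.83% passed there and 20.1% had an unadjusted edgeR p under 0.05. Of the 8 non-coding and readthrough RNAs listed for the cluster, 6 could be tested and 2 fell in the KO comparison, HOXA10-AS and HOXA-AS2 (−1.66, edgeR adjusted p 1.40e-04). The list's median was −0.66 in the KO and −0.17 in the CBE comparison. With base editing 0 of the 6 passed with edgeR and 0 had an unadjusted p under 0.05, against the same 8.83% and 20.1%. Outside that list, ENSG00000270182, described above, rose with base editing. ENSG00000253508, between HOXA11-AS and HOXA13 and also named after its values were seen, had 16 and 25 counts with AAVS1 CBE against 84 and 98 with HOTSCRAMBL CBE (edgeR log2 fold change 2.15, unadjusted p 0.0352, adjusted p 0.201). In the difference between editors HOXA3 (−2.08, edgeR adjusted p 0.0094) and HOXA-AS2 (−1.84, edgeR adjusted p 0.002) passed as lower, where 1.45% of all genes tested did. EVX1, the homeobox gene beyond HOXA13, had 0 counts in every library.

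**Figure D5:**
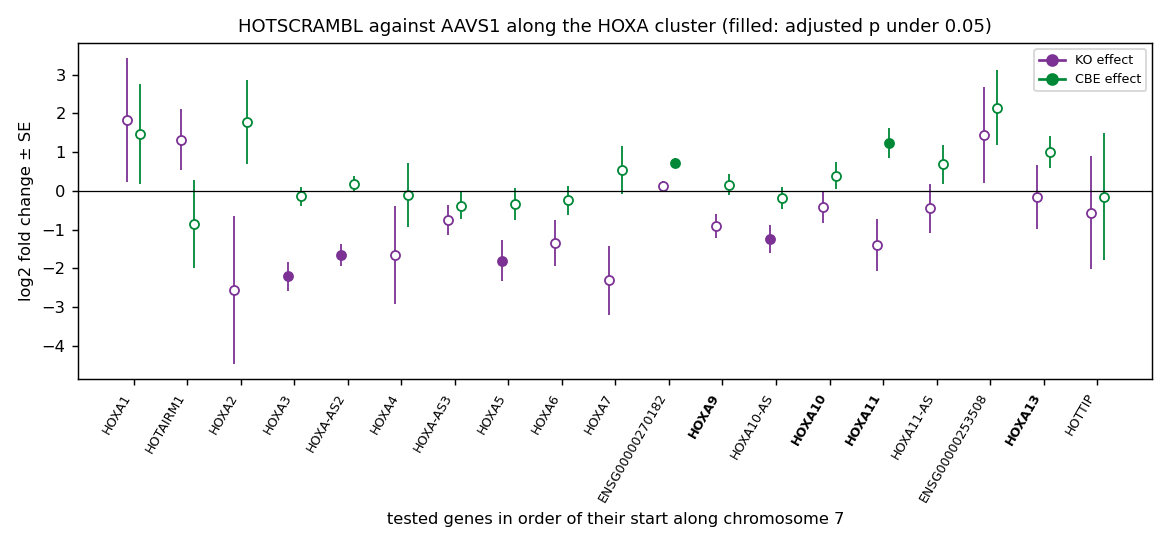
edgeR log2 fold changes of the tested genes of the HOXA cluster in chromosome order, for the KO and the CBE comparison; bars are the SE, and a filled point has an adjusted p under 0.05. HOXA3 (−2.21), HOXA-AS2 (−1.66), HOXA5 (−1.80) and HOXA10-AS (−1.25) passed in the KO comparison, and ENSG00000270182 (0.73) and HOXA11 (1.23) in the CBE comparison.

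The posterior genes of the other HOX clusters were all but absent. Of 12 (HOXB, HOXC and HOXD genes of paralogue groups 9 to 13) 10 had 0 counts in every library. HOXB9 had 14 and 12 counts in HOTSCRAMBL KO, 0 and 10 in HOTSCRAMBL CBE and 0 in the 4 control libraries. HOXC9 had 4 and 24 counts in HOTSCRAMBL KO, 22 and 0 in HOTSCRAMBL CBE and 0 in the 4 control libraries. Neither passed edgeR's test in any comparison with HOTSCRAMBL editing. Of the transcription factors of the CDX family, which act upstream of HOX genes, CDX4 had 0 counts and CDX2 0 to 37.

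TALE proteins, which bind DNA beside HOX proteins, moved in both directions. In the KO comparison MEIS1, the partner of HOXA9 in leukaemia, fell (edgeR log2 fold change −0.67), as did PBX2 (−0.79), while PBX3 rose (0.39), so that 1 of 8 tested members was called higher and 2 lower, where 4.51% of all genes tested were called higher and 4.25% lower. In the CBE comparison MEIS1 (0.63) and PBX3 (1.11) rose and 0 fell, where 4.56% of all genes tested were called higher. The difference between the editors passed for MEIS1 (−1.29) and PBX3 (−0.71), both lower. The list medians were −0.12 (KO), 0.53 (CBE) and −0.71 (difference). PBX3 with base editing passed in all 20 alternative fits. The KO calls of PBX2 and PBX3 were lost in 5 of 20 each and that of MEIS1 in 4. The CBE value of MEIS1 was lost in 3 of 20, at 0.53 without the MOLM13 library of AAVS1 CBE and 0.41 without that of HOTSCRAMBL CBE.

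Genes known to be activated by HOXA9 in leukaemia were also mixed, with 2 of 12 tested called higher and 4 lower in the KO comparison. Of all genes tested, 4.51% were called higher and 4.25% lower there. MYC (edgeR log2 fold change 0.86) and ID2 (1.74) rose, and BCL2, an inhibitor of cell death (−0.49), FOXP1 (−0.57), LMO2 (−0.67) and MYB (−0.28) fell. In the CBE comparison MYC (0.90), the cell-cycle kinase CDK6 (0.40) and the kinase PIM1 (0.57) rose, where 4.56% of all genes tested were called higher, and 0 fell. The list medians were −0.19 and 0.10. MYC passed in all 20 alternative fits of both comparisons, and ID2 and BCL2 in all 20 for KO. MYB lost its KO call in 10 of 20, with an edgeR adjusted p of up to 0.387, FOXP1 in 5 and LMO2 in 4. CDK6 lost its CBE call in 8 of 20, with leave-one-out values of 0.29 to 0.49, and PIM1 in 3. Among 6 genes linked to HOXA10 in myeloid cells, CYBB, a subunit of the phagocyte NADPH oxidase, rose in the KO comparison (1.80), as did the cell-cycle inhibitor CDKN1A (0.83), and ARIH2 fell (−0.55). CYBB and CDKN1A passed in all 20 alternative fits and ARIH2 in 12. In the CBE comparison 0 of these 6 passed with edgeR and 0 had an unadjusted p under 0.05, against 8.83% and 20.1% of all genes tested.

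The 15 tested activators of HOXA transcription include KMT2A with its cofactors and the elongation factors joined to it in leukaemia. Of all genes tested, 4.51% (KO) and 4.56% (CBE) were called higher, and 4.25% were called lower in the KO comparison. KAT6A, a histone acetyltransferase, rose in both comparisons (edgeR log2 fold change 0.71 in KO and 0.90 in CBE). DOT1L, the histone methyltransferase recruited by KMT2A fusions, fell in both (−0.86 and −0.54; 4.27% of all genes tested were called lower in the CBE comparison), and WDR5 fell in the KO comparison (−0.78). The calls of KAT6A and the KO call of DOT1L held in all 20 alternative fits; the CBE call of DOT1L was lost in 3 and that of WDR5 in 5. The other 12 did not pass in either comparison, and 0 of the 15 passed in the difference between editors, where 3.19% of all genes tested did. In that difference AFF1, ASH2L, DOT1L and PSIP1 had an unadjusted edgeR p under 0.05, as had 14.1% of all genes tested.

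Of the 10 myeloid markers 2 rose and 2 fell in the KO comparison, where 4.51% of all genes tested were called higher and 4.25% lower, beside the lower values of HOXA9, HOXA10 and HOXA11. LYZ, the lysozyme of monocytes and macrophages, went from 130 ± 14.9 to 604 ± 139 CPM (edgeR log2 fold change 2.20, adjusted p 9.41e-13), and CSF1R rose (0.69). The granule protein genes AZU1 (−0.89) and ELANE (−0.57) fell. LYZ and AZU1 passed in all 20 alternative fits. CSF1R lost its call in 7, with 0.41 without the OCI-AML4 library of AAVS1 KO (edgeR adjusted p 0.449) and 0.49 without that of HOTSCRAMBL KO. ELANE lost its call in 4, with −0.38 and −0.48 without the same libraries. Of the 10 KO values 3 were above 0 and 7 below, with a median of −0.45. CD33, ITGAM and MPO did not pass but were lower there at an unadjusted edgeR p under 0.05. In the CBE comparison 0 of the 10 passed with edgeR, where 8.83% of all genes tested did. CD33, CSF1R, ITGAM and MPO, all lower, had an unadjusted edgeR p under 0.05 there. In each comparison 20.1% of all genes tested were under that threshold. The part of these markers in the members' values was not tested. Of the B cell, erythroid and megakaryocyte, and fibroblast markers 5 could be tested. In either comparison 0 passed, where 8.76% (KO) and 8.83% (CBE) of all genes tested did.

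The genes whose pattern over the 8 libraries was most like that of each member were listed by Pearson r of log2(CPM + 1), among 11795 genes with a mean of at least 5 CPM. With 8 points and so many candidates, a high r is a ranking only. They were CSAD (r = 0.986), BAIAP2-DT (0.963) and RABL6 (0.961) for HOXA9. For HOXA10 they were PI4KAP1 (0.967), SETD7 (0.966) and GPI (0.944). For HOXA11 they were NEMP1 (0.978), NCAPD2 (0.977) and RCC2 (0.974), and for HOXA13 UFM1 (0.973), GID8 (0.969) and ORMDL3 (0.965). The 4 sets had no gene in common.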

How the data were processed

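Counts per gene were deposited by the authors as 1 table of 8 ChIRP-RNA libraries made with featureCounts 2.0.6 on GRCh38 with Ensembl 112 genes, per the file headers. The recorded command sets paired input but not the counting of pairs as 1, and no strand, multimapping or overlap option. The aligner is not given in the sources used here. The broken records of 2 genes were rejoined, and 62541 of 63140 identifiers matched a symbol. Total counts were 20548300 to 37970163 per library, and n = 2 per group limits the precision.

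Genes were filtered by expression (filterByExpr, minimum count 10), scaled by TMM and tested with edgeR 4.0.16 (R 4.3.3, quasi-likelihood F-test, robust). The newer dispersion method was set, not the earlier one that this edgeR version uses by default. There was 1 fit of all 8 libraries with terms for group and labelled line and 3 residual degrees of freedom. Benjamini-Hochberg adjustment ran over 24057 genes at 0.05. SE values were derived from the log2 fold change and F. Alternatives used DESeq2 1.42.0, limma 3.58.1 and other scalings, filters and sample sets, and the code was tested on simulated data. Members and lists were chosen with earlier results of these data known. Named were the 4 members, genes sharing their exons, at most 6 genes of a list past the threshold by smallest p, and the 3 genes most like each member by Pearson r. Lists covered the other HOXA genes, the cluster's non-coding RNAs, posterior HOX genes elsewhere, TALE cofactors, HOXA9 and HOXA10 targets, HOXA activators, and myeloid, B cell, T cell, erythroid and megakaryocyte, and fibroblast markers. Replicate 1 is labelled MOLM13 and replicate 2 OCI-AML4 in every group, so pairing comes from the labelled line; deviations of same-numbered libraries from their group means correlated at 0.0203 to 0.053 over genes.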

Additional observations from a re-analysis of the deposited data

Results flagged for a closer look

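Of the 71 tested genes of the lists read beside the 4 posterior HOXA genes, 13 had a HOTSCRAMBL effect that differed between the editors by edgeR's adjusted test, where 3.19% of all genes tested did. The lists were chosen with earlier results of these data known, so their share is not independent of these data. No posterior HOXA gene passed this test with edgeR; HOXA11, at −2.63, had an adjusted p of 0.0591 with edgeR and passed with DESeq2. The values are log2 KO effect minus CBE effect. Of the cluster these were HOXA3 (−2.08) and HOXA-AS2 (−1.84), which lie on the anterior side of the 4 genes. Of the TALE cofactors they were MEIS1 (−1.29) and PBX3 (−0.71). Of the genes linked to HOXA9 or HOXA10 they were ID2 (1.87), BCL2 (−0.62), SOX4 (−0.75), CYBB (2.31) and CDKN1A (0.95). Of the myeloid markers they were LYZ (1.97), CSF1R (1.22), AZU1 (−0.72) and ELANE (−0.64). Of the 13 calls, 4 held in all 19 alternative fits (LYZ, AZU1, MEIS1 and PBX3). SOX4 (edgeR adjusted p 0.0485) lost its call in 11 of 19, ELANE in 10, HOXA3 in 7, ID2 and BCL2 in 6 each, CDKN1A and CSF1R in 5 each, CYBB in 3 and HOXA-AS2 in 1.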

How the results depend on the processing

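With n = 2 the members' calls moved with the method. HOXA9 in the KO comparison passed without TMM (−1.07), with DESeq2 on the same genes (−0.91) or its own filter (−0.91). It also passed with edgeR's earlier quasi-likelihood method (−0.93, adjusted p 0.0313). That method is the default of the edgeR version used, and it was added as an alternative after seeing the data. HOXA11 in the KO comparison passed with DESeq2 on the same genes (−1.36). The HOXA11 CBE effect lost its call without TMM (1.09), with DESeq2 size factors (1.22), DESeq2's own filter (1.23), limma-voom (1.28), the 4 libraries of the contrast (1.23) and the earlier edgeR method (1.24), and over leave-one-out fits of 0.76 to 1.85. Without the replicate block it was 1.23 (edgeR adjusted p 0.0639), also not called; the block changed no other call of a member, and without it ARIH2, MYB and ELANE lost their KO calls, CDK6 its CBE call and BCL2, ELANE and SOX4 their call in the difference. Of 23 KO calls in the lists 11 held in every alternative, and of 7 CBE calls 3 did. The HOXA11 difference between editors passed at a minimum count of 50 (−2.60), with DESeq2 on the same genes (−2.59), its own filter (−2.59) and the earlier edgeR method (−2.62). HOXA13 in the KO comparison changed sign with DESeq2 (0.06; own filter 0.07), limma-voom (0.00) and the earlier edgeR method (0.04), and in leave-one-out fits (−0.76 to 1.41). The HOXA13 difference, −1.16 as reported, turned to 0.43 without the OCI-AML4 library of AAVS1 KO (leave-one-out fits −1.74 to 0.43). Other values crossed 0 in leave-one-out fits: the averages of HOXA10 (−0.24 to 0.24) and HOXA11 (−0.32 to 0.22), controls for HOXA9 (−0.08 to 0.72), HOXA10 (−0.16 to 0.75) and HOXA11 (−0.40 to 0.69), and the labelled line for HOXA9 (−0.23 to 0.08; limma-voom 0.00) and HOXA10 (−0.33 to 0.03). The effect by line did so for HOXA11 (−0.93 to 0.58) and HOXA13 (−0.19 to 2.10), the CBE effect for HOXA10-AS (−0.37 to 0.13) and the KO effect for HOXA11-AS (−1.65 to 0.23). ENSG00000270182 KO effect was −0.04 without TMM.

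Over all genes tested, DESeq2 on the same genes called 4150 for the KO effect, 3351 for the CBE effect, 4863 for the average effect, 2205 for the difference between editors, 35 for the controls, 715 for the labelled line and 68 for the effect by line. Its own filter gave 1196 for the difference, 4 for the controls, 307 for the labelled line and 5 for the effect by line. limma-voom gave 1 for the controls and 250 for the labelled line, and the earlier edgeR method 193 for the labelled line and 2 for the effect by line. The 4 libraries of a contrast alone gave 662 (KO) and 530 (CBE). Leave-one-out counts were 701 to 1679 (KO), 579 to 1935 (CBE), 1662 to 2219 (average), 234 to 370 (difference) and 26 to 58 (line). The cause of these changes was not tested. The fit without the replicate block gave 503 for the difference. It can give no contrast of lines, and the 4-library fits can give neither the average nor the difference.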
